A study of Mus musculus with 24 samples.

Results

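The intermediate filament genes of muscle and neurons were followed through myoblast differentiation, with and without silencing of Tead1 and Tead4. The 7 members, Des, Vim, Nes, Synm, Nefl, Nefm and Nefh, were chosen by gene name out of the 28109 genes of the deposited RNA-seq table, and each had 1 row. They were proposed with results of these libraries already known. The adjusted p-values given here therefore place each member among all genes tested and are no independent support. C2C12 cells, an established line from C3H mouse muscle, and primary myoblasts (PMs) isolated from C57BL/6 mice aged 3 to 4 weeks were transfected with siControl, which the labels name as directed at luciferase, or with pooled siRNAs against both Tead1 and Tead4 (siTead1/4). RNA was prepared 24 h later in growing cells (day 0), and after 3 and 6 days in medium with 2% horse serum, in which myoblasts fuse into myotubes. Each of the 12 groups had 2 biological replicates, giving 24 libraries. C2C12 cells stand for a single line, and transfection left part of both target mRNAs in place. The media also differed, DMEM for C2C12 cells and IMDM on matrigel for PMs, and the library numbers run separately. In all comparisons of PMs with C2C12 cells, cell type, strain, medium, coating and library numbering cannot be told apart.

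Intermediate filaments are rope-like cytoskeletal polymers whose protein subunits change with cell type. Vim (vimentin) is the subunit of mesenchymal and proliferating cells, myoblasts included, and Des (desmin) is the muscle subunit that ties the Z-discs of sarcomeres to each other and to the membrane. Nes (nestin) and Synm (synemin) are large subunits that do not build filaments alone but join those of Vim or Des. Nefl, Nefm and Nefh encode the light, medium and heavy neurofilament subunits, the filaments of axons. Tead factors bind MCAT elements in muscle genes, and differentiating myoblasts are known to replace Vim by Des.

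Library totals ran from 25453830 to 52784510 counts, and replicates correlated at 0.981 to 0.993 across genes (Pearson's r of log2 CPM). Tead1 and Tead4 in single siTead1/4 libraries stood at 4.9% to 72.5% of the siControl mean in C2C12 cells and at 15.7% to 62.1% in PMs. In C2C12 cells Tead1 was at 31.4% and 4.9% at day 0 and at 66.5% and 72.5% at day 6. Tead4 was there at 21.9% and 21.4% at day 0 and at 33.6% and 48.4% at day 6. The 12 myogenic genes listed summed to 629 and 801 CPM (read counts scaled to library size) in siControl C2C12 cells at day 0 but to 12480 and 13261 CPM in siControl PMs, and all 12 were called higher in the PMs (16.3% of all genes). A gene was called where edgeR's quasi-likelihood test gave a Benjamini-Hochberg adjusted p under 0.05 over all genes tested and the log2 fold change exceeded 1 in size.

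On mm9, Des lies on chromosome 1 (75356904-75365154, plus strand), Vim on chromosome 2 (13495554-13504453, plus), Nes on chromosome 3 (87775000-87784373, plus), Synm on chromosome 7 (74875047-74904628, minus) and Nefh on chromosome 11 (4838757-4848067, minus), each counted over its exons. Of the exon bases of Des, 220 also belong to the antisense gene Gm15179, whose reads could not be told apart from those of Des there.

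Des, Vim and Nes made up nearly the whole of the summed level in every library. Levels of different genes are compared as CPM per kb of the gene length in the table. On this scale Vim held 83.0% and 83.8% of the 7-member sum in siControl C2C12 cells at day 0, and 72.8% and 75.6% in siControl PMs. Des held 8.61% and 7.89% in the C2C12 cells and 18.8% and 16.8% in the PMs. By day 3 Des had reached 77.3% and 74.0% in siControl PMs, with Vim down to 14.7% and 15.0%, and in C2C12 cells both stood close together, Des at 43.6% and 43.7% and Vim at 41.5% and 37.1%. The Des share of siControl C2C12 cells at day 6 was 53.5% and 54.7%. The sum itself ranged from 2219 to 3051 CPM per kb over the 12 PM libraries and from 1897 to 3672 over the 12 C2C12 libraries. Neurofilament genes contributed 1.44% and 1.40% in siControl C2C12 cells at day 0 and at most 0.0347% in any PM library.

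**Figure D1:**
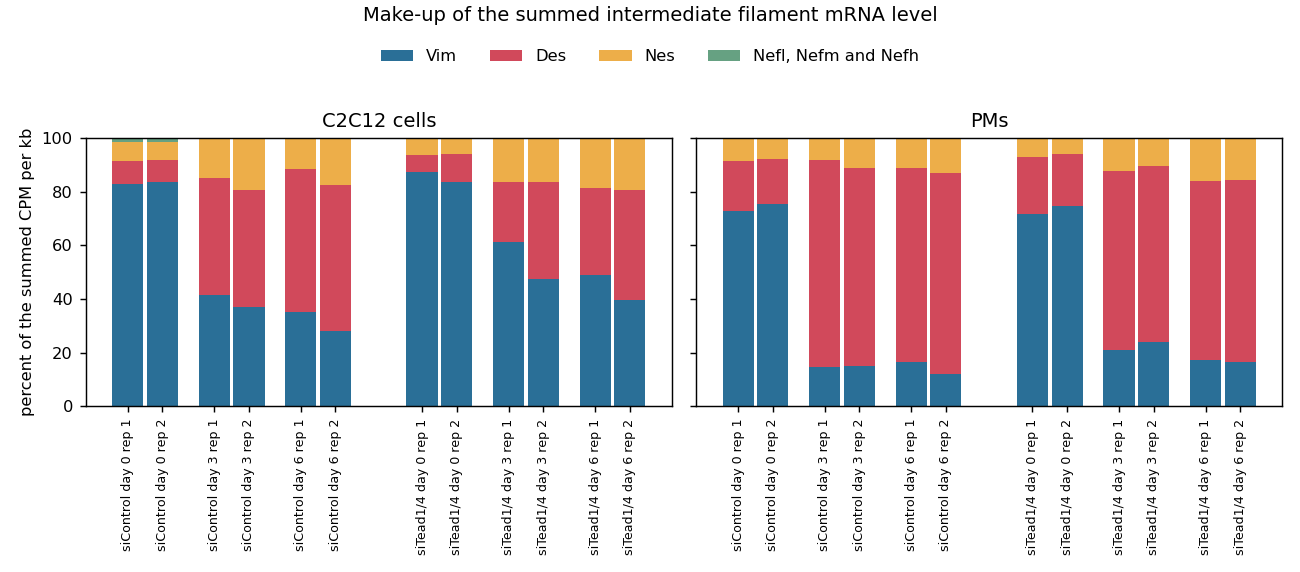
Share of Vim, Des, Nes and the neurofilament genes in the summed CPM per kb of the 7 members, 1 bar per library, grouped by siRNA and day, for C2C12 cells (left) and PMs (right). Synm, at most 0.26% of the sum in any library, is too thin to draw. In each of the 4 series the Vim part is smaller and the Des part larger at day 3 than at day 0.

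In differentiating siControl cells Des rose and Vim fell in both cell types. Des read 865 and 775 CPM at day 0 in C2C12 cells, 3092 and 3148 CPM at day 3, and 4281 and 4525 CPM at day 6. The log2 fold change was 1.89 ± 0.47 (SE, adjusted p = 0.0102) at day 3 and 2.39 ± 0.48 (adjusted p = 0.00303) at day 6. In PMs Des was 1552 and 1460 CPM at day 0, 6931 and 6615 CPM at day 3, and 6471 and 6767 CPM at day 6, a rise of 2.11 ± 0.11 and 2.07 ± 0.11 on the log2 scale (adjusted p = 2.57e-07 and 2.05e-07). All day 3 and day 6 libraries lay above all day 0 libraries of their cell type. The share of all genes with such a separation was not counted, here or for the separations below. Vim ran the other way, from 6106 and 6032 CPM at day 0 to 2157 and 1956 CPM at day 3 and 2059 and 1698 CPM at day 6 in C2C12 cells. Its log2 fold change was -1.60 ± 0.31 at day 3 and -1.73 ± 0.31 at day 6 (adjusted p = 0.00247 and 0.00143). In PMs Vim went from 4401 and 4809 CPM to 968 and 984 CPM at day 3 and 1083 and 810 CPM at day 6, with a log2 fold change of -2.29 ± 0.17 and -2.35 ± 0.17 (adjusted p = 1.63e-06 and 1.13e-06). Over the 12 group means Des and Vim correlated at r = -0.969, a description in which all points share the time course. In bulk RNA fewer cells of a type and less RNA per cell cannot be told apart, for these and all values that follow.

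Without siControl replicate 1 or replicate 2, neither Des nor Vim was called at either day in C2C12 cells (adjusted p from 0.0792 to 0.211), with log2 fold changes of up to 2.51 for Des and -1.86 to -1.54 for Vim, while the 9 calls of siControl PMs all stood in each such fit. With 1 member up and 3 down at day 3 in C2C12 cells, the table as a whole had 16.0% of genes called up and 12.7% called down. At day 6 the member counts were again 1 up and 3 down, against 17.1% and 14.0% of all genes. In PMs 2 members rose and 3 fell at day 3 (17.5% and 14.9% of all genes), and 2 rose and 2 fell at day 6 (20.2% and 15.3%).

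The promoters of Des, which rose, of Vim, which fell, and of Synm, which rose in PMs, are shown because Des and Vim together held most of the summed level and Synm had the largest called rise in siControl PMs. Each sequence runs 5′ to 3′ from 250 bases before to 50 bases after the gene start and comes from RefSeq on GRCm38.p6, a later build than the mm9 of the counts. Capitals mark matches on either strand to CANNTG, the E-box bound by Myod1 and Myog, to CATTCC, the core of the MCAT element, and to TATAAA.
Des (chr1:75360042-75360341, plus strand): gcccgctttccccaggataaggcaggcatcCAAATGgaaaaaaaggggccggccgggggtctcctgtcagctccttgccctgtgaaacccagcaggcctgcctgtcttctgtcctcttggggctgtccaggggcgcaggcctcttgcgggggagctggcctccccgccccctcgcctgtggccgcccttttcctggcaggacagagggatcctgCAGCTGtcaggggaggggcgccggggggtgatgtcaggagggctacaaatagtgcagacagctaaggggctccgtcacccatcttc
Vim (chr2:13574061-13574360, plus strand): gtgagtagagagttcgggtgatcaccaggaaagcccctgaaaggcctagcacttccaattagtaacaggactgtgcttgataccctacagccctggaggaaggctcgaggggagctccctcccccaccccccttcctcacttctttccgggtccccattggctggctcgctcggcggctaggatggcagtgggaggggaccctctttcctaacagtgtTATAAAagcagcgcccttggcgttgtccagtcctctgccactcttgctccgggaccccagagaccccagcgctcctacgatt
Synm (chr7:67759693-67759992, minus strand): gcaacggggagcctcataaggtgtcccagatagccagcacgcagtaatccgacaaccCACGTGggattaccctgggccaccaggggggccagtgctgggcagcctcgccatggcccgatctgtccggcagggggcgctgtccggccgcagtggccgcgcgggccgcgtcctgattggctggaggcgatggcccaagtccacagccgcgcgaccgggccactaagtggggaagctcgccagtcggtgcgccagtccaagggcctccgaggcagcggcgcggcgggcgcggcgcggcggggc
Des had E-box letters starting at -220 and -36 from the gene start, the second with the centre preferred by muscle factors (CAGCTG, itself a case of CANNTG). Vim had no E-box letters but a TATAAA at -32. Synm had 1 E-box match at -193. CATTCC was found in none of these 3 windows, nor in that of Nes, which matched no motif searched. Of the 32851 windows of this length in the table, 72.3% held CANNTG, 16.3% CAGCTG, 13.6% TATAAA and 14.7% CATTCC, and these matches are letters in a window, not shown sites.

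Synm separated the 2 cell types during differentiation. Its product links Des filaments to the dystrophin complex and to costameres. In siControl PMs Synm was at 1.53 and 1.49 CPM at day 0, 40.9 and 27.7 CPM at day 3 and 46.6 and 15.3 CPM at day 6. The rise was 4.45 ± 0.56 on the log2 scale at day 3 and 4.28 ± 0.56 at day 6 (adjusted p = 6.08e-05 and 7.03e-05), the largest fold of any member in the siControl PMs. The day 6 value was 3.30 without siControl replicate 1 and 4.85 without siControl replicate 2, both called. In siControl C2C12 cells the values were 1.18 and 1.32 CPM, then 1.56 and 2.81 CPM, then 3.18 and 4.85 CPM, and neither day was called (log2 fold change 0.77 ± 0.67 and 1.63 ± 0.67, adjusted p = 0.39 and 0.0741). Day 6 libraries still lay above day 0 libraries there, and this difference was called by DESeq2 and by edgeR without the filter on low counts, with all 24 libraries in the fit, or with the 4 libraries compared alone (adjusted p from 7.87e-05 to 0.0471). Between siControl cells of the same day, Synm had a log2 fold change of PMs over C2C12 cells of 0.27 ± 0.68 at day 0 (adjusted p = 0.791), 3.96 ± 0.67 at day 3 (adjusted p = 0.000147) and 2.96 ± 0.64 at day 6 (adjusted p = 0.00157). The day 6 call was lost without siControl replicate 1 (1.66, adjusted p = 0.26), the PM library of that day with the higher Synm.

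Nes, known from dividing myoblasts and regenerating fibres, was called at neither day in siControl cells. In C2C12 cells under siControl it read 1422 and 1365 CPM at day 0, 2146 and 2802 CPM at day 3 and 1849 and 2904 CPM at day 6. The log2 fold changes of 0.79 ± 0.35 and 0.73 ± 0.35 were not called (adjusted p = 0.0958 and 0.114). In siControl PMs Nes went from 1395 and 1335 CPM to 1416 and 1966 CPM and then to 1974 and 2356 CPM, and the day 6 difference of 0.60 ± 0.16 passed the p threshold (adjusted p = 0.00639) but not that on size.

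Growing C2C12 cells carried the mRNAs of the light and medium neurofilament subunits, and lost them on differentiation. Nefl stood at 113 and 106 CPM and Nefm at 82.8 and 80.8 CPM at day 0 of the siControl line. At day 3 Nefl was at 1.04 and 1.60 CPM (44 and 79 counts) and Nefm at 1.72 and 1.88 CPM. Day 6 levels were 0.482 and 0.601 CPM for Nefl and 1.72 and 1.002 CPM for Nefm. These are log2 fold changes of -6.41 ± 0.40 and -7.71 ± 0.44 for Nefl (adjusted p = 4.36e-06 and 2.5e-06) and -5.54 ± 0.36 and -5.92 ± 0.37 for Nefm (adjusted p = 5.05e-06 and 3.34e-06), the largest of any member, and all 4 stood in every fit without a replicate. In siControl PMs both were low throughout, Nefl at 1.04 and 0.535 CPM (49 and 19 counts) at day 0 and 2 to 7 counts per library later, and Nefm between 0.393 and 1.72 CPM. Nefl fell in PMs too, from 68 counts over both replicates at day 0 to 6 at day 3, a ratio of 10.3 with a counting interval of 4.5 to 29.1 (exact conditional binomial, 95%, counting error only). At day 6 it had 9 counts, a ratio of 5.63 (2.8 to 12.8), and the fitted changes of -3.32 ± 0.63 and -2.49 ± 0.59 were both called (adjusted p = 0.00102 and 0.00383).

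Nefm in siControl PMs dipped at day 3 and came back. Its level was 1.72 and 1.49 CPM at day 0, 0.393 and 0.48 CPM at day 3 (14 and 19 counts) and 1.68 and 1.04 CPM at day 6 (52 and 32 counts). The fall to day 3 was called (-1.93 ± 0.31, adjusted p = 0.00036), and so was the difference of day 6 from day 3 (1.62 ± 0.32, adjusted p = 0.0183), the sole member up in that comparison, in which 2.22% of all genes were called up. This last call was lost when any replicate was left out.

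Between siControl cells of the 2 types at day 0, the members called were these 2 neurofilament genes. Cell type, strain, medium, coating and library numbering cannot be told apart in this comparison. PMs stood below C2C12 cells by 7.09 ± 0.43 on the log2 scale for Nefl and 5.66 ± 0.32 for Nefm (adjusted p = 1.38e-09 and 7.04e-10), 2 members called down against 10.5% of all genes. The gap narrowed as C2C12 cells lost both mRNAs, to -3.998 ± 0.56 and -2.03 ± 0.33 at day 3 (adjusted p = 2.5e-05 and 0.000111). At day 6 Nefl differed by -1.85 ± 0.59 (adjusted p = 0.0204) and Nefm by -0.02 ± 0.31 (adjusted p = 0.961). Des at day 3 was higher in PMs (1.12 ± 0.36, adjusted p = 0.0171) and Vim lower (-1.08 ± 0.24, adjusted p = 0.0015), which with Synm and the neurofilament genes made 2 members up and 3 down at day 3 (17.2% and 12.6% of all genes), and 1 up and 1 down at day 6 (15.7% and 9.22%). Without siControl replicate 1 or 2 the Des and Vim calls at day 3 were lost (adjusted p from 0.0647 to 0.298), and without siControl replicate 2 that of Nefl at day 6 was lost (-1.11, adjusted p = 0.343).

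**Figure D2:**
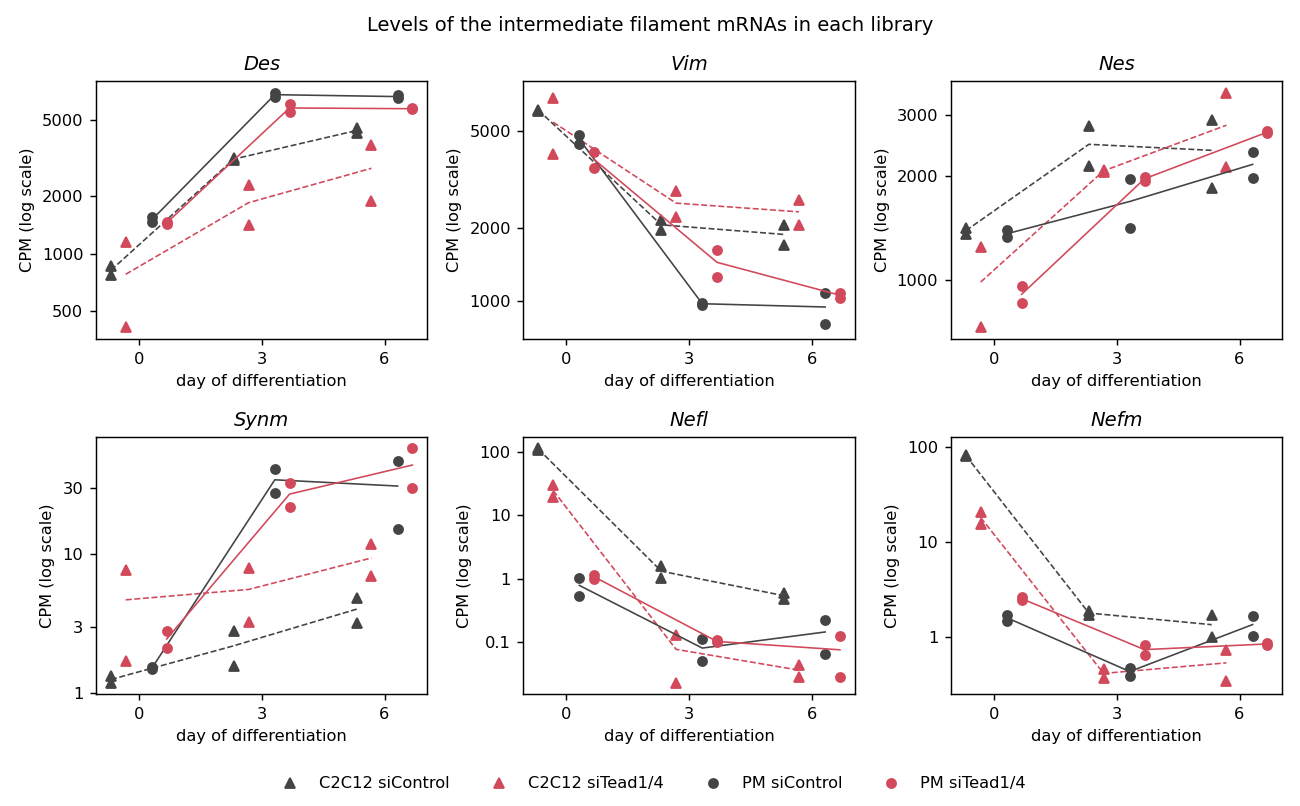
CPM (log axis) of the 6 members tested, by day of differentiation. Triangles and dashed lines are C2C12 cells, circles and full lines PMs, grey siControl and red siTead1/4; each point is 1 library, shifted sideways for legibility, and lines join group means. Nefl and Nefm of C2C12 cells at day 0 stand above all other libraries, and Synm is higher at days 3 and 6 than at day 0 in PMs.

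Nefl and Nefm lie side by side on chromosome 14 of mm9, and their annotations overlap. Nefl spans 68701920-68707152 on the plus strand and Nefm 68700647-68742903 on the minus strand, since 1 of the 2 annotated Nefm transcripts runs on into the first exon of Nefl. The exons share 1108 bases, which leaves 2272 of 3380 exon bases of Nefl and 4674 of 5782 of Nefm to a single gene (GENCODE vM1). The library kit does not keep the strand, so reads from the shared bases could not be told apart, and levels per kb of these genes are approximate. Per kb Nefl was 2.34 and 2.24 times Nefm in siControl C2C12 cells at day 0. Over the 12 group means their log2 CPM correlated at r = 0.978. Whether the shared bases have a part in this was not tested.

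Silencing of Tead1 and Tead4 lowered both neurofilament mRNAs in C2C12 cells. At day 0 Nefl was at 19.2 and 29.8 CPM in siTead1/4 cells against 113 and 106 CPM in siControl cells, and Nefm at 15.7 and 20.9 CPM against 82.8 and 80.8 CPM. The siTead1/4 and siControl libraries did not overlap for either gene, and the share of all genes so separated was not counted. The log2 fold change was -2.16 ± 0.32 for Nefl and -2.16 ± 0.31 for Nefm (adjusted p = 0.0275 and 0.0252), 2 of the 6 members tested called down where 0.301% of all genes were. At day 3, 5 and 1 counts of Nefl were left against 44 and 79, a siControl to siTead1/4 ratio of 18.1 with a counting interval of 8.08 to 50.2, and a fitted log2 fold change of -4.12 ± 0.53 (adjusted p = 0.0135). Nefm was at 0.37 and 0.463 CPM against 1.72 and 1.88 CPM (-2.13 ± 0.37, adjusted p = 0.0322). These were again 2 members down, with 1.08% of all genes. At day 6 no member was called by edgeR (0.0457% of all genes), and DESeq2 called Nefl. An unadjusted p under 0.05 was found for 2 members, and for 1064 of all 15303 genes. Nefl had 1 and 2 counts against 25 and 18, a ratio of 14 with a counting interval of 4.48 to 70.5 (adjusted p = 0.0946), and Nefm was at 0.346 and 0.731 CPM against 1.72 and 1.002 CPM (-1.32 ± 0.37, adjusted p = 0.342).

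These 4 calls rest on having both control replicates. Without siControl replicate 1 or replicate 2 the adjusted p of the 4 lay between 0.115 and 0.628 and no member was called, while the log2 fold changes stayed between -4.40 and -2.05. Fits to the 4 libraries compared alone gave adjusted p of 0.087 to 0.13. Leaving out either siTead1/4 replicate kept all 4 calls, but Nefl at day 3 then ran from -5.67 (without replicate 1) to -3.31 (without replicate 2).

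The other members showed no called change upon siTead1/4 silencing in C2C12 cells. Des was at 413 and 1148 CPM at day 0, on either side of the siControl values of 865 and 775. It stood at 1414 and 2280 CPM at day 3 and 1884 and 3704 CPM at day 6, below all siControl libraries of those days, and the log2 fold changes of -0.79 ± 0.46 and -0.65 ± 0.46 were not called (adjusted p = 0.509 and 0.891). Without siTead1/4 replicate 2, whose Des was the higher one at each day, Des was called down at day 3 (-1.15, adjusted p = 0.0346). The myogenic genes moved alongside at day 3, at 7627 to 9249 CPM in sum against 17569 to 20591. Actn2 and Myh3 were called down (-3.16 ± 0.54 and -2.47 ± 0.45), where 1.08% of all genes were. The part of the myogenic genes in the Des and neurofilament values was not tested. Synm leaned upward and was uneven, at 7.68 and 1.68 CPM at day 0 against 1.18 and 1.32, at 7.89 and 3.24 CPM at day 3 against 1.56 and 2.81, and at 6.94 and 11.8 CPM at day 6 against 3.18 and 4.85. All 6 siTead1/4 values exceeded both siControl values of their day, with log2 fold changes of 1.91 ± 0.68, 1.32 ± 0.65 and 1.24 ± 0.65 (adjusted p = 0.328, 0.41 and 0.799). As for Des above, the share of all genes so separated was not counted. The fit without a filter on low counts called Synm up at all 3 days, and that without siTead1/4 replicate 2 at day 0 (2.59, adjusted p = 0.0447). Vim and Nes were not called, with log2 fold changes of -0.16 ± 0.30, 0.27 ± 0.30 and 0.31 ± 0.30 for Vim and -0.49 ± 0.35, -0.28 ± 0.35 and 0.25 ± 0.35 for Nes at days 0, 3 and 6 (adjusted p from 0.709 to 0.951).

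**Figure D3:**
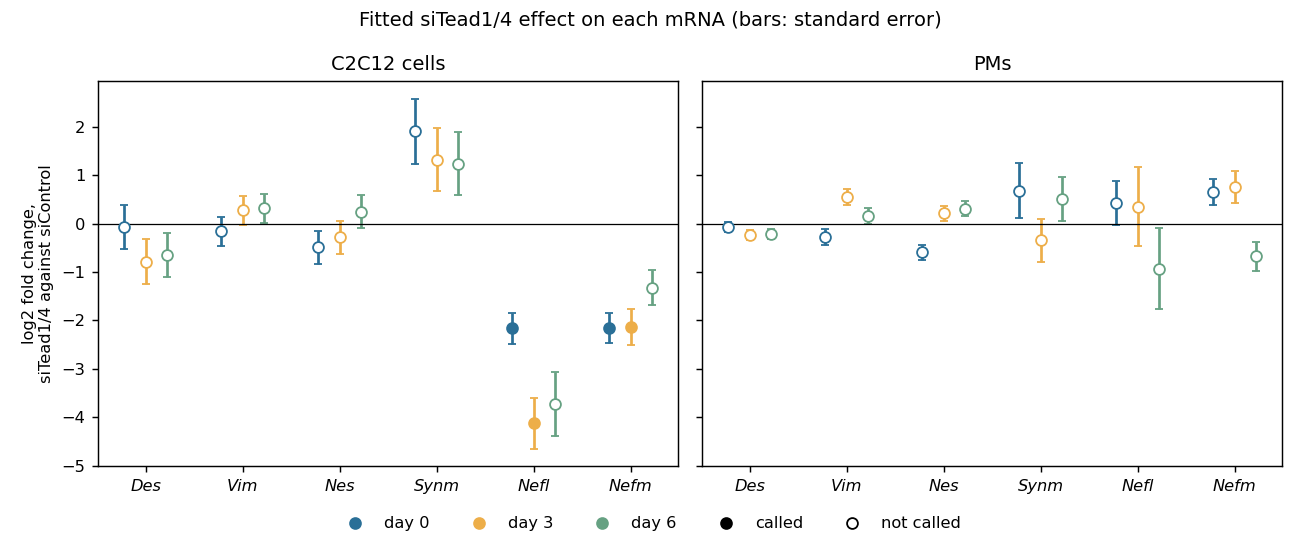
Log2 fold change of siTead1/4 against siControl for the 6 members tested at days 0, 3 and 6, in C2C12 cells (left) and PMs (right), with the standard error of the fit. Filled points are called, and these are Nefl and Nefm at days 0 and 3 in C2C12 cells alone.

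In PMs no member was called upon siTead1/4 silencing at any day, by edgeR or by DESeq2, although 2.60%, 3.30% and 0.743% of all genes were at days 0, 3 and 6. Of the 18 tests 6 had an unadjusted p under 0.05, and the log2 fold changes ran from -0.93 to 0.76. Over all 16144 genes, 3756, 3668 and 1914 had such a p at days 0, 3 and 6. Nes at day 0 was lower, 967 and 858 CPM against 1395 and 1335, a difference that passed the p threshold but not that on size (-0.59 ± 0.16, adjusted p = 0.0455). Vim at day 3 was at 1262 and 1625 CPM against 968 and 984 (0.56 ± 0.16, adjusted p = 0.0669). Des at day 3 was at 5493 and 6051 CPM against 6931 and 6615 (-0.24 ± 0.11, adjusted p = 0.213). Nefm at day 0 was at 2.66 and 2.45 CPM against 1.72 and 1.49 (0.66 ± 0.27, adjusted p = 0.179). At day 3 it was at 0.837 and 0.648 CPM against 0.393 and 0.48 (0.75 ± 0.32, adjusted p = 0.196), and at day 6 it lay the other way, at 0.866 and 0.837 CPM against 1.68 and 1.04 (-0.67 ± 0.30, adjusted p = 0.41).

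The ratio of Des to Vim, both per kb, was lower in the silenced libraries of both cell types at days 3 and 6. In C2C12 cells it was 1.05 and 1.18 in siControl and 0.364 and 0.757 in siTead1/4 libraries at day 3, and 1.52 and 1.95 against 0.672 and 1.04 at day 6. In PMs it was 5.24 and 4.92 against 3.19 and 2.73 at day 3, and 4.38 and 6.12 against 3.84 and 4.09 at day 6. The 2 groups did not overlap in any of these 4 comparisons. At day 0 the ratios were 0.104 and 0.0941 against 0.0752 and 0.123 in C2C12 cells, which overlap, and 0.258 and 0.222 against 0.297 and 0.263 in PMs, where the silenced cells were the higher ones. With 2 libraries a group an exact permutation test cannot go below a two-sided p of 0.333, and no other test of the ratio was run, so these values are a description.

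The siTead1/4 effect on the neurofilament genes differed between the cell types. The effect in PMs minus that in C2C12 cells was 2.83 ± 0.39 for Nefm at day 0 (adjusted p = 0.0267), the single gene called among 16926 tested (0.00591% called up). At day 3 it was 2.86 ± 0.49 for Nefm and 4.46 ± 1.05 for Nefl (adjusted p = 0.0082 and 0.0474), 2 members up where 1.02% of all genes were. Nefl at day 0 had a difference of 2.59 ± 0.51, not called by edgeR (adjusted p = 0.2). This difference was called by DESeq2 (adjusted p = 0.0018) and by edgeR without the filter on low counts (adjusted p = 9.44e-05). At day 6 no member was called by edgeR or DESeq2 (0.0354% of all genes), and 1 had an unadjusted p under 0.05, as had 916 of the 16926 genes. All 3 calls were lost without siControl replicate 1 or 2 (adjusted p from 0.222 to 1). The Nefm call at day 0 was also lost without siTead1/4 replicate 2 (3.12, adjusted p = 0.168), and the Nefl call at day 3 without either siTead1/4 replicate (5.97 and 3.71, adjusted p = 0.071 and 0.214). PMs had few counts of Nefl, 2 to 5 per library at day 3.

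Silenced cells were also followed from day 0. In siTead1/4 PMs all 6 members tested were called at both days, 3 up and 3 down (15.9% and 12.4% of all genes at day 3, 18.2% and 13.7% at day 6), with Des at 1.94 ± 0.11 and 1.92 ± 0.11, Vim at -1.46 ± 0.16 and -1.91 ± 0.17, and Synm at 3.42 ± 0.52 and 4.11 ± 0.53. Nes was at 1.05 ± 0.16 and 1.499 ± 0.16, from 967 and 858 CPM at day 0 to 2700 and 2664 CPM at day 6, and without siTead1/4 replicate 2 its day 3 value fell short of the threshold on size (0.96). The change of the siTead1/4 effect from day 0 was itself not called for Nes (0.80 ± 0.22 and 0.90 ± 0.22, adjusted p = 0.137 and 0.0919), nor for any other member in either cell type, by edgeR or DESeq2, with an unadjusted p under 0.05 in 5 of 24 tests. In PMs 0.328% and 0.626% of all genes were called there, and in C2C12 cells 0%. At days 3 and 6 an unadjusted p under 0.05 was found for 2170 and 2169 of 16144 genes in PMs. In C2C12 cells it was found for 1745 and 1298 of 15303. In siTead1/4 C2C12 cells Vim, Nefl and Nefm fell at both days, 3 members down (10.8% and 10.7% of all genes). Des and Nes were called up at day 6 (1.803 ± 0.47 and 1.47 ± 0.35, 2 members against 14.4% of all genes) and neither at day 3 (13.8%), where Des was at 1.17 ± 0.47 (adjusted p = 0.0761) and Nes at 0.9999 ± 0.35 (adjusted p = 0.0478). DESeq2 called both at day 3. Without siControl replicate 1 or 2 the calls of Vim at both days and of Des at day 6 were lost (adjusted p from 0.0561 to 0.0772), and those of Vim also without siTead1/4 replicate 2. Nefl had 819 and 814 counts at day 0 and 1 to 5 counts per library afterwards, a ratio of 315 (145 to 860) at day 3 and 622 (212 to 3018) at day 6 with its counting interval.

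Nefh, the heavy neurofilament subunit, had at most 12 counts in any library and did not pass the filter on low counts in the fits reported here. Without siControl replicate 2 it entered the fit and was called between siControl PMs and C2C12 cells at day 6. It had 0 to 5 counts in C2C12 libraries and 3 to 12 in PM libraries. A count of 3 corresponds to between 0.0533 and 0.11 CPM at these depths.

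Neuronal marker genes were read beside the neurofilament genes. Of 18 neuronal markers listed, 17 were in the table, and 10 of these stayed under 1 CPM in all C2C12 libraries, among them Rbfox3, Snap25, Syt1 and Elavl4, which mark mature neurons and their synapses. The summed level was 139 to 583 CPM over the C2C12 libraries, and 55.3 to 116 CPM over the PM libraries, where Rbfox3 was at 0 counts throughout. Between siControl cells at day 0, 3 of the 11 neuronal markers tested were higher in PMs (Dcx, Nsg2 and Syp) and 4 lower (Stmn2, Gap43, Nsg1 and Tubb3), against 16.3% and 10.5% of all genes. Stmn2, a microtubule regulator of growing axons, was at 207 ± 29.4 CPM (SD, n = 2) in siControl C2C12 cells at day 0 and at 2.88 ± 0.0909 CPM in siControl PMs. In siTead1/4 C2C12 cells at day 0 it was at 270.1 ± 67.7 CPM, and the summed marker level was 321 to 583 CPM against 444 to 488. No neuronal marker of the 8 tested was called between siTead1/4 and siControl C2C12 cells at any day. Of all genes, 0.438%, 1.27% and 0.0457% were called there in either direction at days 0, 3 and 6. At day 0 the log2 fold changes of these 8 markers went both ways, from -1.55 ± 0.59 for Gap43 to 1.54 ± 0.44 for Mapt. Their median was -0.07 at day 0, 0.15 at day 3 and -0.45 at day 6. During siControl differentiation by day 3, 2 of the 8 rose and 4 fell in C2C12 cells (16.0% and 12.7% of all genes), Dcx (from a mean of 0.023 to 2.05 CPM, n = 2) and Mapt (5.07 ± 0.44) upward and Tubb3 (-2.03 ± 0.58) and Stmn2 (-1.88 ± 0.27) downward. In silenced PMs Mapt and Syp were called up at day 0 and Mapt and Nsg2 at day 3. The part of these genes in the neurofilament result was not tested. The Schwann cell list, which summed to 88.1 to 504 CPM in C2C12 and 133 to 404 CPM in PM libraries, held 1 gene called down in C2C12 cells at day 0, Ngfr (-3.93 ± 0.39, adjusted p = 0.0102), and 1 in PMs at day 0, Egr2 upward (1.98 ± 0.41). Its defining Sox10 and S100b stayed under 1 CPM in all C2C12 libraries.

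Markers of other cells that use Vim or Des filaments were read alongside. Endothelial markers summed to 2.74 to 7.41 CPM in C2C12 and 10.1 to 39.3 CPM in PM libraries, and macrophage markers to 4.78 to 11.2 and 5.14 to 14.8 CPM, with C1qa at 0 in all 24 libraries. Fibroblast markers, several of them matrix genes that muscle cells also make, summed to 1848 to 8170 and 873 to 7871 CPM, with Tcf21 at 0 throughout. Of 11 tested, 5 rose and 1 fell in siControl PMs by day 3 (17.5% and 14.9% of all genes). At day 6 against day 0, 8 rose and 1 fell (20.2% and 15.3%), with a median log2 fold change of 3.07. Between day 3 and day 6, 7 rose and 0 fell (2.22% and 0.582%), with a median of 1.25. Upon silencing, Dcn and Lum fell in PMs at day 6 (-2.46 ± 0.39 and -2.79 ± 0.50), where 0.279% of all genes were called down. No fibroblast marker was called in silenced C2C12 cells (0.438%, 1.27% and 0.0457% of all genes at days 0, 3 and 6). Smooth muscle markers, of which Acta2 and Tagln are made by myoblasts too, summed to 962 to 4986 and 946 to 2694 CPM, and Tagln fell in silenced PMs at day 0 (-1.56 ± 0.24). Of the other lists, Tek rose upon silencing in PMs at day 0 and Vwf at day 3, Mrc1 rose in PMs at both later days, and Itgam fell in C2C12 cells at day 3. The part of such cells in the members' values was not tested.

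Other intermediate filament genes were read in the same comparisons. Of 16 listed, 11 were tested in C2C12 cells and 15 in PMs, with median log2 fold changes at day 3 of -0.50 and 0.42 against -0.01 and 0.01 over all genes. In siControl cells 3 rose and 3 fell at day 3 in C2C12 cells, and 4 rose and 4 fell in PMs, against 16.0% up and 12.7% down of all genes in C2C12 cells and 17.5% and 14.9% in PMs. Lmnb1, a B-type lamin of the nuclear envelope, fell in both (-2.99 ± 0.53 and -3.11 ± 0.18), and so did Prph, the filament of peripheral neurons (-2.75 ± 0.63 and -3.05 ± 0.44). Prph was low from the start, at 1.32 ± 0.561 CPM (SD, n = 2) in C2C12 cells and 0.769 ± 0.188 CPM in PMs at day 0. In C2C12 cells Iffo1 rose (4.18 ± 0.22) and the keratin gene Krt19 fell (-2.93 ± 0.62). In PMs the keratin gene Krt8 rose (2.40 ± 0.51), and so did Ina, a neuronal filament gene that assembles with neurofilament subunits (2.33 ± 0.62), from 0.113 ± 0.0397 to 0.591 ± 0.156 CPM. Sync, named after its values were seen because it encodes the Des-binding syncoilin, rose in C2C12 cells (2.02 ± 0.16) and stayed under the threshold on size in PMs (0.96 ± 0.11). Upon siTead1/4 silencing Iffo1 fell in C2C12 cells at day 3 (-1.10 ± 0.19, adjusted p = 0.0322), and in PMs at day 0 Krt8 rose (2.31 ± 0.51) and Prph fell (-1.33 ± 0.36).

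**Figure D4:**
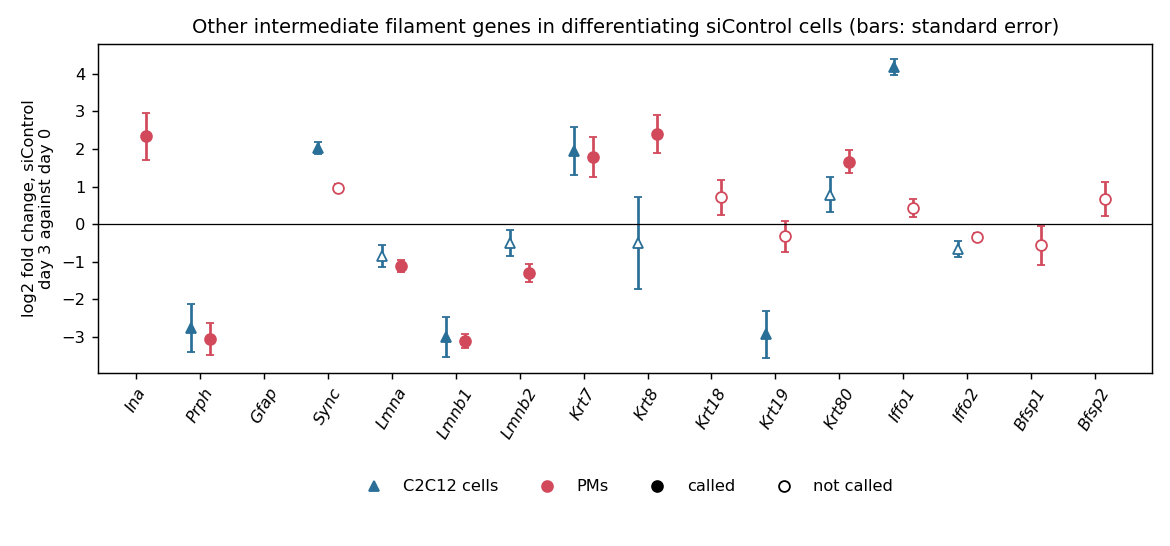
Log2 fold change of siControl cells at day 3 against day 0 for the other intermediate filament genes, in C2C12 cells (triangles) and PMs (circles), with the standard error of the fit. Filled points are called; a gene with no point was too low to test. Lmnb1 and Prph are called down and Krt7 is called up in both cell types.

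Genes whose products link these filaments to junctions, the Z-disc, the nucleus or microtubules were read as a further list. Of 23 listed, 22 were tested, and 8 rose and 2 fell in siControl C2C12 cells at day 3, while 9 rose and 4 fell in PMs, against the same shares of all genes. The median log2 fold changes of the list were 0.36 and 0.75, against the same medians over all genes. Dmd, which encodes dystrophin, rose by 6.78 ± 0.66 and 3.82 ± 0.29, and Jup, the junction protein plakoglobin, by 2.19 ± 0.33 and 2.06 ± 0.18. In C2C12 cells Ank1, an ankyrin, and Dtna, a dystrobrevin, rose by 3.33 ± 0.31 and 2.51 ± 0.28. In PMs Nebl, a nebulin relative, and Syne2, a nesprin of the nuclear envelope, fell (-5.28 ± 0.48 and -2.16 ± 0.31). Upon siTead1/4 silencing 2 fell in C2C12 cells at day 3, Nebl (-1.73 ± 0.35) and Ank1 (-1.69 ± 0.29), where 1.08% of all genes were called down. None was called in PMs at any day (2.60%, 3.30% and 0.743% of all genes at days 0, 3 and 6).

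Likeness over the 12 group means of log2 CPM, given as Pearson's r with no test, placed each member beside other genes of the table. Des was closest to Usp13 (0.996), Cfl2 (0.993), the muscle cofilin, and Pfkm (0.991), the muscle phosphofructokinase. Vim was closest to Gm6180 (0.995), Trmt11 (0.994) and the cell cycle kinase gene Cdk4 (0.992). Nes followed Wwtr1 (0.957), which encodes the Tead coactivator Taz, Map3k14 (0.950) and Sike1 (0.949). Synm followed Rabgef1 (0.965), Gm10822 (0.962) and Tmco4 (0.961). Nefl and Nefm were each other's closest gene (0.978), followed for Nefl by Tmprss11f (0.976) and Prl2c3 (0.967), a proliferin, and for Nefm by Prl2c3 (0.959) and 2810030E01Rik (0.951).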

How the data were processed

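RNA-seq of 24 libraries (12 groups, 2 replicates each) was read from 1 deposited table. The authors sequenced poly(A) RNA by a protocol without strand information, and the deposited values used are raw read counts per gene. The submitters' processing notes name CASAVA 1.8.2, TopHat2 2.0.10, Bowtie2 2.1.0, HTSeq 0.6.1, DESeq2 1.8.1 and mm9. The table's normalised columns, and 36 columns of 12 libraries outside the sample list, were not used.

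Counts were tested in edgeR 4.0.16 (R 4.3.3) with TMM scaling, filterByExpr and the quasi-likelihood test, on 6 group means per cell type (15303 genes in C2C12 cells, 16144 in PMs) or on all 12 groups (16926 genes) for comparisons between cell types. A call needed an adjusted p under 0.05 (Benjamini-Hochberg over all genes tested) and an absolute log2 fold change over 1. CPM used TMM library sizes of all 24 libraries, and log2 CPM a prior count of 2. With 2 replicates per group, p-values measure the spread between these samples. A count of 3 corresponds to 0.0533 to 0.11 CPM, and counting intervals cover counting error only. The scripts were tested on simulated data.

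Named genes were all 7 members, up to 4 called genes per list by size of change, and the 3 genes most like each member. The members and lists were chosen with earlier results of these data known. The lists were other intermediate filament genes, linkers, and markers of neurons, Schwann cells, fibroblasts, endothelium, macrophages, smooth muscle and myogenic cells. Alternatives were DESeq2 1.42.0 as test or for scaling, no filter, all libraries or only those compared in the fit, a replicate block, and leaving out each replicate. Gene positions came from GENCODE vM1 on NCBIM37 (mm9), and promoters, matched for 4 of 7 members, from RefSeq.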

Additional observations from a re-analysis of the deposited data

Results flagged for a closer look

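The siTead1/4 effect differed between PMs and C2C12 cells, by the test of the difference itself, for Nefm at day 0 (2.83 on the log2 scale, adjusted p = 0.0267), for Nefl at day 3 (4.46, adjusted p = 0.0474) and for Nefm at day 3 (2.86, adjusted p = 0.0082), all by edgeR. In each case the C2C12 cells had lost mRNA upon silencing, while the PMs showed no called change. Nefm leaned upward in silenced PMs at days 0 and 3 (0.66 and 0.75 on the log2 scale). Nefl had 2 to 5 counts per PM library at day 3.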

How the results depend on the processing

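Of 616 values of the 111 member fold changes under alternatives that kept all replicates, 581 stayed on their side of the threshold, 9 lost a call, 26 gained one and 0 changed sign. Of 444 values with a replicate left out, the lone sample being assumed to vary like the other groups, 374 stayed, 44 lost a call, 11 gained one and 15 changed sign, none of them called. Without a filter on low counts, member calls went from 4 to 9 for silencing in C2C12 cells, from 1 to 2 for day 6 against day 3, from 0 to 1 for the change of the siTead1/4 effect with day and from 3 to 5 for its difference between cell types. With only the libraries compared they were 0 for silencing in C2C12 cells, 5 instead of 8 for siTead1/4 C2C12 differentiation and 0 for day 6 against day 3. Leaving out a replicate gave 0 to 6 calls for silencing in C2C12 cells, 4 to 9 for siControl and 5 to 10 for siTead1/4 C2C12 differentiation, 0 to 0 for day 6 against day 3, 0 to 1 for the change of the effect with day, and 0 to 2 for its difference between cell types. The cause was not tested. The ranges of the results that changed sign were, for silencing in C2C12 cells, -1.01 to 0.48 for Des and -0.62 to 0.16 for Vim at day 0 and -0.16 to 0.60 for Nes at day 6. For silencing in PMs they were -0.0062 to 0.46 for Nes and -0.12 to 0.98 for Nefl at day 3, and -0.029 to 0.38 for Vim, -0.083 to 1.51 for Synm and -2.21 to 0.19 for Nefl at day 6. The others were -0.16 to 2.84 for Synm of siTead1/4 C2C12 cells at day 6 against day 0, -0.033 to 0.51 for Nes of siControl PMs at day 3 against day 0, and, for siControl PMs against C2C12 cells at day 6, -0.30 to 0.064 for Nes and -0.058 to 0.055 for Nefm. Replicate numbers were shared between groups without a stated pairing, and deviations of same-numbered samples correlated at -0.168 to 0.468 over 15 pairs of groups in C2C12 cells and 0.0548 to 0.503 in PMs. With the replicate block, silencing in C2C12 cells kept its 4 calls, siTead1/4 C2C12 differentiation had 10 instead of 8, and the difference between cell types 2 instead of 3, Nefl at day 3 being lost (4.46, adjusted p = 0.0518). Counts of Nefl after day 0, 1 to 79 per library, limit its fold changes.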
